A study of Mus musculus with 6 samples.

Results

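The RAF, MEK and ERK cascade relays growth factor signals from RAS proteins at membranes to kinases that act in the cytoplasm and nucleus. A RAF kinase phosphorylates a MEK kinase, MEK phosphorylates ERK, and scaffold proteins hold the kinases together at a given place in the cell. p14, the product of Lamtor2, forms a complex on late endosomes with MP1, the product of Lamtor3, and that complex is known to recruit MEK1 and ERK1 there. The 8 genes described here were the kinases Araf, Braf, Map2k1 (MEK1), Map2k2 (MEK2) and Mapk3 (ERK1), the scaffolds Ksr1 and Iqgap1, and Pebp1, which encodes the RAF kinase inhibitor protein RKIP. They were found by symbol among 18193 genes that the platform annotation pairs with a probe set of their own, and 7 of the 8 were found. Mapk3 was not analysed here.

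Expression was measured in whole liver of 6 male C57BL/6 mice, each 6 weeks old, with 1 Affymetrix array per mouse. The first group, KO, was 3 mice with a conditional liver knockout of p14. The second, WT, was 3 control mice of genotype p14 WT, and each mouse was a biological replicate per the labels. The promoter that drove the recombinase, and whether control mice carried the floxed allele or the recombinase, are not given in the sources used here. All values are log2 expression levels per probe set as the authors normalised them, and differences are KO minus WT. A whole liver sample mixes cell types, so fewer cells of a type and less RNA per cell cannot be told apart.

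Lamtor2, the targeted gene, measured 10.08, 10.19 and 10.11 on the KO arrays and 11.32, 11.29 and 11.35 on the WT arrays. It fell by 1.19 on the log2 scale (limma adjusted p = 0.0104), and the groups did not overlap. Averaged with its dim second probe set it differed by -0.72 (limma adjusted p = 0.0282). Leaving out KO 2 gave a limma adjusted p of 0.0691, leaving out WT 1 or WT 2 gave 0.114, and leaving out WT 3 gave 0.0505. Hepatocyte markers such as Alb and Ttr were at list means of 15.26 to 15.39 on all 6 arrays, and 9 of the 10 were measured. Of 7 cholangiocyte and 9 lymphocyte markers, 1 each passed the filter on dim genes described next. Mean signal of 7 skeletal muscle markers was 11.11 on WT 2 and 2.48 to 2.70 on the other arrays. Without WT 2 the difference was 0.043 for Araf, -0.12 for Braf, 0.076 for Map2k1, -0.19 for Map2k2, -0.30 for Iqgap1 and -0.22 for Pebp1, with limma adjusted p of 0.350 to 0.882. Signal of the 18S rRNA control probe sets was 8.50 to 9.24 in KO and 7.77 to 8.44 in WT.

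Genes were tested where 3 or more of the 6 arrays reached a log2 value of 4, which was the case for 10009 genes. Of the 7 cascade genes with a probe set, 6 passed and Ksr1 did not. At a Benjamini-Hochberg adjusted p under 0.05 in limma, 0 of these 6 were called, where 0.17% of all genes tested were. At an unadjusted p under 0.05 there was 1, Iqgap1, against 14.5% of all genes, and an ordinary two-sample test per gene also called 0 after adjustment. KO and WT arrays did not overlap for Iqgap1 and Pebp1, 2 of the 6, where 20.5% of all genes did not overlap in either direction and 14% did not overlap and were lower in KO. The members' median difference was -0.10 beside -0.04 over all genes, of which 58.4% were lower in KO. With 6 genes these counts are close to what the shares over all genes give.

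**Figure D1:**
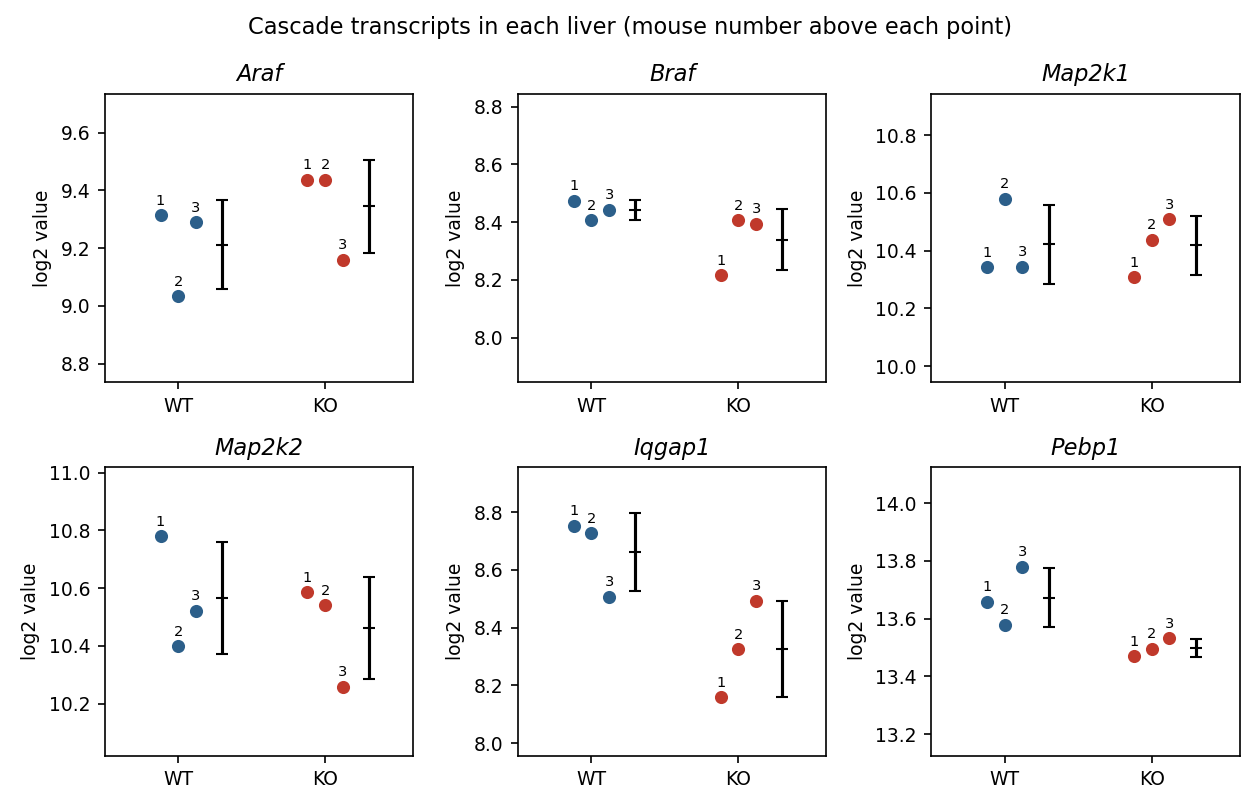
Log2 value of 6 cascade genes in each liver, for the brightest probe set of each gene. Points are single mice with their replicate number, blue for WT and red for KO; the bar beside them is the mean with its SD (n = 3), and every panel spans 1 log2 unit. Only Iqgap1 and Pebp1 have all KO points below all WT points, and for Iqgap1 the nearest points are 8.49 (KO 3) and 8.51 (WT 3).

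Promoter sequences are shown for the genes with a separated probe set, Iqgap1, Pebp1 and Braf, so that the regions upstream of the measured transcripts can be compared. They are the 250 bases before a start site in the RefSeq promoter table (GRCm38.p6), 5′ to 3′ on the gene's strand. For Iqgap1 and Braf that start lies inside the gene span given below, which reaches further upstream. Capitals mark GC boxes (GGGCGG or its complement CCGCCC) and cyclic AMP response elements (TGACGTCA).
Iqgap1, chr7:80803332-80803581, minus strand: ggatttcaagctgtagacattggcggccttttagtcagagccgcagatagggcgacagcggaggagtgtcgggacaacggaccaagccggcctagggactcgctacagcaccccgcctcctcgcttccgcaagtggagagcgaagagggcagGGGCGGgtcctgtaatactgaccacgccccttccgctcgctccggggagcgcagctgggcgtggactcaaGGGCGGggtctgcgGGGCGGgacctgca
Pebp1, chr5:117287565-117287814, minus strand: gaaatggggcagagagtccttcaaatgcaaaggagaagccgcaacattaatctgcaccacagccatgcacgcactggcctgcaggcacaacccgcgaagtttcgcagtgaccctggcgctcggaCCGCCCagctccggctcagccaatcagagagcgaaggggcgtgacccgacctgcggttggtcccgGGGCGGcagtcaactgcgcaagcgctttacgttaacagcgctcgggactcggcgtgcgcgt
Braf, chr6:39725464-39725713, minus strand: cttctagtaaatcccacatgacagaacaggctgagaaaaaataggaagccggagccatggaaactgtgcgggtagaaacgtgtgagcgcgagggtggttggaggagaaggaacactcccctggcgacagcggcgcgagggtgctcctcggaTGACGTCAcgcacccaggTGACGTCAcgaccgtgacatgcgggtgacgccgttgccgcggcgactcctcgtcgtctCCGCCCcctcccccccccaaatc
Iqgap1 held 3 GC boxes, Pebp1 2 and Braf 1, and Braf alone of the 7 members with a promoter entry held the cyclic AMP element, with 2 matches. Over 32851 mouse promoter windows of this length, 32.7% held a GC box and 1.55% a cyclic AMP element on either strand. Map2k1, whose groups overlapped, held 4 GC boxes, and Araf held 0. The ETS motif CCGGAAG (6.91% of all windows) and the E-box CACGTG (6.02%) had 0 matches in any member, and the AP-1 motif TGACTCA (4.46%) had 1, in the second of 2 start sites of Ksr1. No match says only that these letters are not in the window, and no motif searched overlapped another in the sequences shown. GC content was 66.0% for Iqgap1, 62.8% for Pebp1 and 62.0% for Braf, against a median of 52.4%.

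Araf encodes A-RAF, a RAF kinase upstream of MEK, at chrX:20797707-20860521 (GRCm38.p6). Its brightest probe set measured 9.44, 9.44 and 9.16 on KO 1, KO 2 and KO 3 and 9.31, 9.03 and 9.29 on WT 1, WT 2 and WT 3. KO 1 and KO 2 were the highest arrays, while KO 3 lay below WT 1 and WT 3, so the groups overlapped. The difference was 0.13 with a 95% interval of -0.16 to 0.43 (limma adjusted p = 0.609).

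The other 3 Araf probe sets past the filter were also higher in KO, by 0.19, 0.47 and 0.11. The one at 0.47 measured 6.31, 5.94 and 6.28 in KO and 5.43, 5.72 and 5.95 in WT, and missed separation by KO 2 lying just below WT 3. With all probe sets tested it had a limma adjusted p of 0.319. The last Araf probe set lay between 2.49 and 2.70 on every array, below the filter. Where these probe sets lie in the transcripts was not analysed here.

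Braf encodes B-RAF, the RAF kinase with the highest basal activity towards MEK, at chr6:39603231-39725658. Its brightest probe set measured 8.22, 8.41 and 8.39 in KO and 8.47, 8.41 and 8.44 in WT. KO 1 was the lowest array and KO 2 tied with WT 2, so the groups met at one value. The difference was -0.10 with an interval of -0.29 to 0.08 (limma adjusted p = 0.542).

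A second Braf probe set separated the groups, at 7.60, 7.55 and 7.79 in KO and 7.96, 7.92 and 7.87 in WT. All KO livers were below all WT livers there, with a difference of -0.27 (82.9% of the WT signal). The exact permutation p was 0.1, the smallest that 3 against 3 arrays allow, and the limma adjusted p over 17316 probe sets was 0.292. The 3 remaining probe sets past the filter were at -0.13, 0.041 and 0, and those last 2 sat at one repeated value on 5 and 6 of the arrays. The probe sets of Braf thus differed among themselves in size and sign, and 4 more lay below the filter.

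Map2k1 encodes MEK1, the kinase that p14 and MP1 are known to bring to late endosomes, at chr9:64185769-64253605. Its 1 probe set measured 10.31, 10.44 and 10.51 in KO and 10.34, 10.58 and 10.34 in WT. The highest array was a WT liver and the lowest a KO liver, with the others between them. The difference was -0.0033 with an interval of -0.25 to 0.24 (limma adjusted p = 0.993). Its sign turned under several settings.

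Map2k2 encodes MEK2, the close relative of MEK1, at chr10:81105913-81124697. Its brighter probe set measured 10.59, 10.54 and 10.26 in KO and 10.78, 10.40 and 10.52 in WT. KO 3 was the lowest array and WT 1 the highest, and KO 1 and KO 2 lay inside the WT range. The difference was -0.11 with an interval of -0.45 to 0.24 (limma adjusted p = 0.726). The dimmer probe set went the other way, by 0.10, from 7.23 ± 0.04 in WT to 7.33 ± 0.18 in KO (SD, n = 3 each).

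Ksr1 encodes a kinase-like scaffold that binds RAF, MEK and ERK. All 3 of its probe sets lay between 2.18 and 2.33 on all 6 arrays, where the lowest value in the table is 2.18. No difference can be read at this signal, and Ksr1 transcripts below what these probes detect may be present in either group.

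Iqgap1 encodes a large scaffold of the actin cortex that binds B-RAF, MEK and ERK, at chr7:80711583-80815549. Its brightest probe set measured 8.16, 8.33 and 8.49 on KO 1, KO 2 and KO 3 and 8.75, 8.73 and 8.51 on WT 1, WT 2 and WT 3. All KO livers were below all WT livers, but KO 3 and WT 3 nearly met. The difference was -0.34 ± 0.12 (SE) with an interval of -0.62 to -0.05, or 79.2% of the WT signal (unadjusted p = 0.0292, limma adjusted p = 0.305). The exact permutation p was 0.1.

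The other 2 bright Iqgap1 probe sets also had every KO array below every WT array. One measured 7.98, 7.92 and 8.03 in KO and 8.39, 8.41 and 8.18 in WT, a difference of -0.35 (limma adjusted p = 0.244 over all probe sets). The other measured 7.80, 7.70 and 8.12 in KO and 8.13, 8.58 and 8.23 in WT, a difference of -0.44 (limma adjusted p = 0.329), with KO 3 just below WT 1. KO livers held 73.8% to 79.2% of the WT signal over the 3 probe sets. They were read from the same 6 livers for the same gene and are not independent. A further 4 probe sets sat at repeated values between 2.18 and 2.23.

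**Figure D2:**
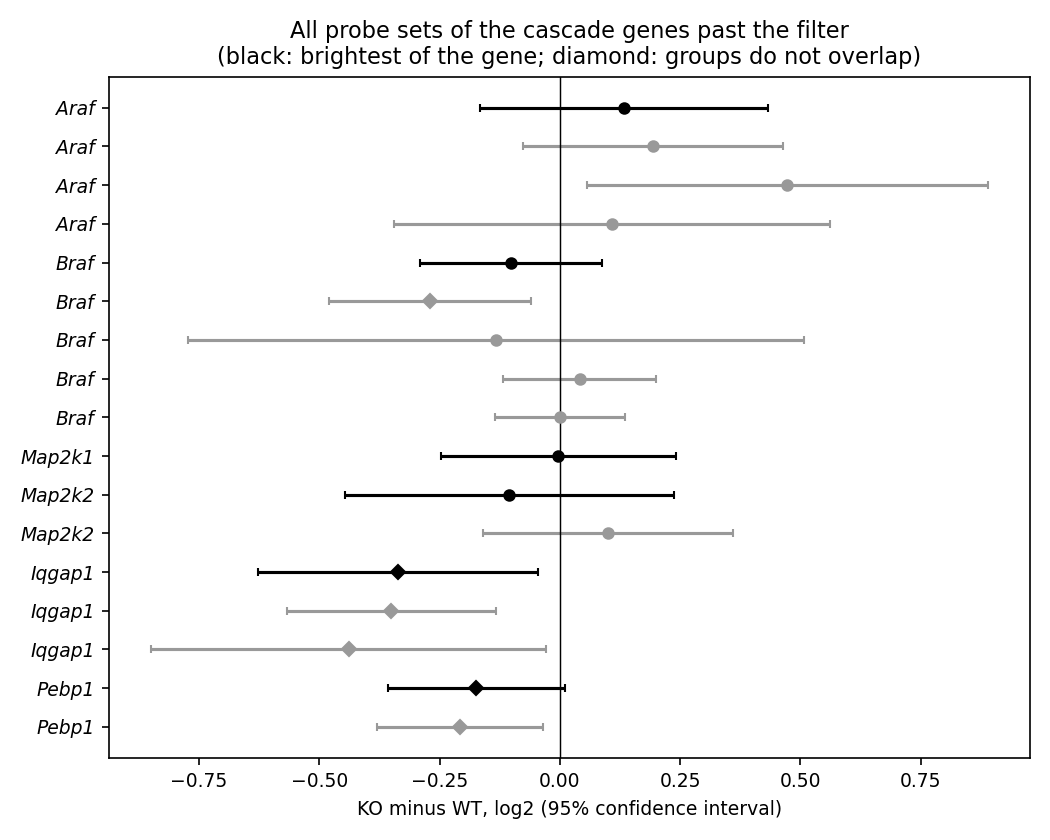
KO minus WT difference (log2, x axis) for each of the 17 probe sets of the 6 cascade genes past the filter, with the 95% confidence interval from the limma fit over all 17316 probe sets. Black marks the brightest probe set of a gene, grey the others, and diamonds those whose groups do not overlap: all 3 of Iqgap1, both of Pebp1 and 1 of Braf. The 4 Araf probe sets lie right of 0.

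Markers of other cell types differed between the same arrays as Iqgap1. All 12 of the Kupffer cell and macrophage markers were measured and all 12 had a lower KO mean. The median difference was -0.89, 0 were called and 8 did not overlap, where 14% of all genes did not overlap and were lower in KO. Averaged over the list they stood at 8.61, 8.96 and 9.87 on KO 1, KO 2 and KO 3, against 10.16 to 10.30 in WT livers. The third KO liver was thus the KO array nearest to WT both for these markers and for the brightest Iqgap1 probe set. None of the 12 was at the lowest value on any array: Clec4f ran from 10.65 to 11.78 and Cd5l from 10.76 to 12.21, while on KO 1 Marco at 4.41, Timd4 at 4.42 and Cd68 at 4.99 lay near the filter level.

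Of 10 liver endothelial markers 9 were lower, with a median of -0.41, 7 not overlapping and 1, Lyve1, fallen. Over all genes 14% did not overlap and were lower in KO, and 0.17% were called in either direction. Their list means were 8.60 to 9.02 in KO and 9.22 to 9.40 in WT. Of 9 measured stellate cell markers 8 were lower, with a median of -0.36, 3 not overlapping and overlapping list means (9.99 to 10.32 in KO, 10.31 to 10.69 in WT). In the endothelial, stellate and macrophage lists alike, KO 3 had the highest mean of the KO arrays. This was not particular to them. KO 3 was also highest for hepatocyte markers (15.33, 15.32 and 15.36 on KO 1, KO 2 and KO 3) and for proliferation genes. Among the pathway lists below, the same held for partners, RAS proteins, RAF regulators, ERK substrates and ERK phosphatases. It did not hold for ERK-induced transcripts or parallel cascades. Hepatocyte markers had a median of -0.05. Of these 9, 2 did not overlap, Hnf4a at -0.20 and Pck1 at 0.24, where 20.5% of all genes did not overlap. Their list means of 15.26 to 15.39 lay near the highest value in the table, 16.33. The part of these cell types in the Iqgap1 difference was not tested. Between the same groups 18S rRNA control signal differed by 0.80, and the log2 signal of pyruvate carboxylase near its 3 prime end minus that near its 5 prime end was 3.51 to 3.58 in KO and 3.99 to 4.85 in WT. Their part was not tested either.

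**Figure D3:**
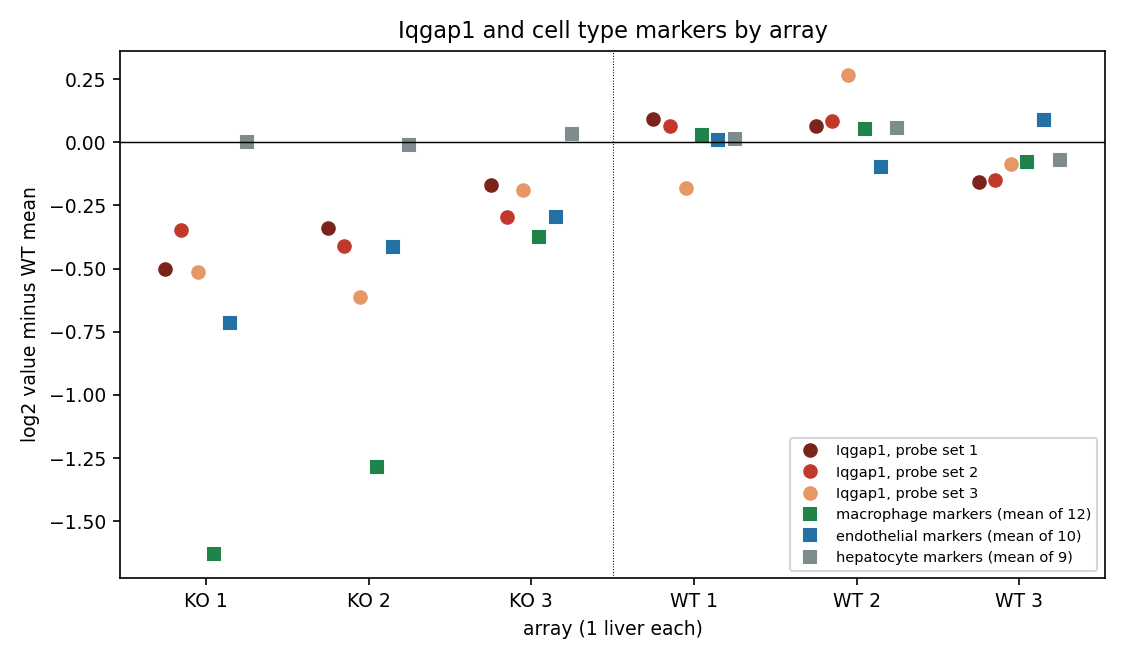
Log2 value on each array minus the mean of the WT arrays, for the 3 bright Iqgap1 probe sets (circles, probe set 1 being the brightest) and for the list means of cell type markers (squares). The macrophage mean runs from 8.61 to 9.87 on the KO arrays and the hepatocyte mean from 15.32 to 15.36; Iqgap1 lies below 0 on all 3 KO arrays.

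The 3 genes whose values over the 6 arrays were most like the brightest Iqgap1 probe set were Cxcl10, Gbp3 and Mef2a. Pearson r was 0.994, 0.992 and 0.989 over 6 arrays, picked as the highest among all genes tested. Cxcl10, an interferon-induced chemokine, measured 6.06, 6.60 and 7.65 in KO and 8.61, 8.64 and 7.71 in WT. Gbp3, an interferon-induced GTPase, differed by -0.70 (limma adjusted p = 0.335), and Mef2a, a transcription factor, by -0.24 (limma adjusted p = 0.345). All 3 differed between the groups in the same direction as Iqgap1, and the points share arrays and the genotype split.

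Pebp1 encodes RKIP, which binds RAF and MEK and holds back the step between them, and lies at chr5:117282651-117287564. Its brighter probe set measured 13.47, 13.50 and 13.53 in KO and 13.66, 13.58 and 13.78 in WT. All KO livers were below all WT livers, and the KO livers lay close together. The difference was -0.17 with an interval of -0.36 to 0.0086, or 88.7% of the WT signal (limma adjusted p = 0.353, exact permutation p = 0.1).

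The second Pebp1 probe set measured 12.76, 12.74 and 12.84 in KO and 12.98, 12.92 and 13.07 in WT. Its groups did not overlap either, with a difference of -0.21 (limma adjusted p = 0.310 over all probe sets). With each array centred on its median the brighter probe set differed by -0.11, since the medians of the KO arrays lay 0.067 below those of the WT arrays. Iqgap1 differed by -0.27 and Araf by 0.20 under that centring, and 0 of the 6 members had an unadjusted limma p under 0.05. The medians of KO 3 and WT 3 (8.53 and 8.63) lay further apart than their Iqgap1 values (8.49 and 8.51). Centring thus put KO 3 above WT 3 for the brightest Iqgap1 probe set. The Iqgap1 probe set at -0.44 and the Braf one at -0.27 overlapped too. The Iqgap1 probe set at -0.35 and the Pebp1 probe sets stayed separated.

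The other genes of the pathway were read from 7 lists, of which 101 of 140 genes were tested. In KO 71 of them were lower and 30 were not, at a median difference of -0.09. The 30 include Dusp5, which did not differ between the groups. Lamtor2 fell and 0 genes rose, and groups did not overlap for 22.8% of these genes beside 20.5% of all genes. At an unadjusted p under 0.05 there were 16, or 15.8% beside 14.5% of all genes, so these shares are near the background.

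Among 15 tested partners and scaffolds of the cascade, 6 were higher and 9 lower, with a median of -0.06 and Lamtor2 as the one called. Lamtor3, which encodes the MP1 partner of p14 and was picked here for that role, measured 10.01, 10.06 and 10.18 in KO and 10.06, 10.13 and 10.20 in WT. Its difference was -0.04 with an interval of -0.23 to 0.14. Pea15a, which encodes a protein that keeps ERK in the cytoplasm, differed by -0.53 (limma adjusted p = 0.212). Paqr3, which encodes a Golgi protein that tethers RAF, differed by 0.62 (limma adjusted p = 0.238), at 6.96, 7.35 and 6.76 in KO and 6.38, 6.38 and 6.46 in WT. WT 1 and WT 2 sat at the same repeated value, 6.3823. Iqgap2, the relative of Iqgap1 known from hepatocytes and also picked for its role, differed by -0.09 with overlapping groups.

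Of 20 tested RAS proteins and adaptors 4 were higher and 16 lower, with a median of -0.10 and 0 called. The adaptor Crkl differed by -0.41, the RAS-related GTPase Rras by -0.22 and the GTPase activator Rasa3 by -0.31, with limma adjusted p from 0.242 to 0.343. Of 18 RAF regulators 4 were higher and 14 lower, with a median of -0.07 and 0 called. Among them the phosphatase subunit Ppp2r2a differed by -0.25, the kinase chaperone Cdc37 by -0.23 and the 14-3-3 protein Ywhah by -0.15.

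Downstream of ERK, 0 of 11 tested substrates were called, with a median of -0.04. Stmn1, which encodes the microtubule regulator stathmin, measured 7.90, 8.68 and 8.79 in KO and 10.87, 10.71 and 10.73 in WT. Every KO liver was below every WT liver, with a difference of -2.31 (limma adjusted p = 0.0564). It ran from 0.0274 to 0.277 over 17 of the 18 alternatives (limma or ordinary test), 9 of them under 0.05. In the remaining alternative, with every single-symbol probe set tested, Stmn1 was not called. With 1 array left out the limma adjusted p was 0.0274 without KO 1 and 0.0365 without KO 3, and 0.174 to 0.255 without any of the other arrays in turn. Proliferation genes differed between the same arrays, with list means of 3.45 to 4.56 in KO and 6.17 to 6.52 in WT. All 8 tested were lower, which the filter partly fixed. Aurka and Ccna2 were under 4 on every KO array and passed only through the WT arrays. Top2a, Birc5, Ccnb2 and Kif11 were under 4 on KO 1 and KO 2. The part of proliferation genes in the Stmn1 difference was not tested. Ets2, an ETS transcription factor, differed by -0.72 and Mknk1, a kinase activated by ERK, by 0.23.

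Of 9 ERK phosphatases and feedback inhibitors 6 were lower, with a median of -0.22 and 0 called. The 3 not lower include Dusp5, which sat at 4.255 on all 6 arrays and thus did not differ. Dusp6, the ERK phosphatase, measured 9.73, 9.69 and 9.86 in KO and 11.33, 11.15 and 10.63 in WT (limma adjusted p = 0.120). Dusp3 differed by -0.22 and Spred1, an inhibitor of RAS signalling, by -0.45. Of 12 tested ERK-induced transcripts 2 were higher and 10 lower, with a median of -0.28 and 0 called. Ier5 differed by -0.59, Ccnd1, which encodes cyclin D1, by -0.85 and Jun by -0.95, each with every KO array below every WT array. Groups did not overlap for 4 of the 12, where 14% of all genes did not overlap and were lower in KO. The KO list means of these transcripts were 7.10 to 7.56 and the WT list means 7.61 to 7.77. List means were also apart for the partners, RAF regulators and ERK substrates (8.85 to 9.12 in KO, 9.20 to 9.27 in WT). The same held for the RAS proteins (8.59 to 8.65 in KO, 8.71 to 8.80 in WT). For the ERK phosphatases and feedback inhibitors they overlapped (7.11 to 7.60 in KO, 7.42 to 7.90 in WT).

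In the parallel MAP kinase cascades 6 of 16 tested genes were higher and 10 lower, with a median of -0.05 and 0 called. Map2k5, the MEK of the ERK5 branch, differed by -0.29 (limma adjusted p = 0.270), Map3k3 by -0.32 and Map3k2 by -0.16. No difference between these branches and the RAF and MEK genes was tested.

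**Figure D4:**
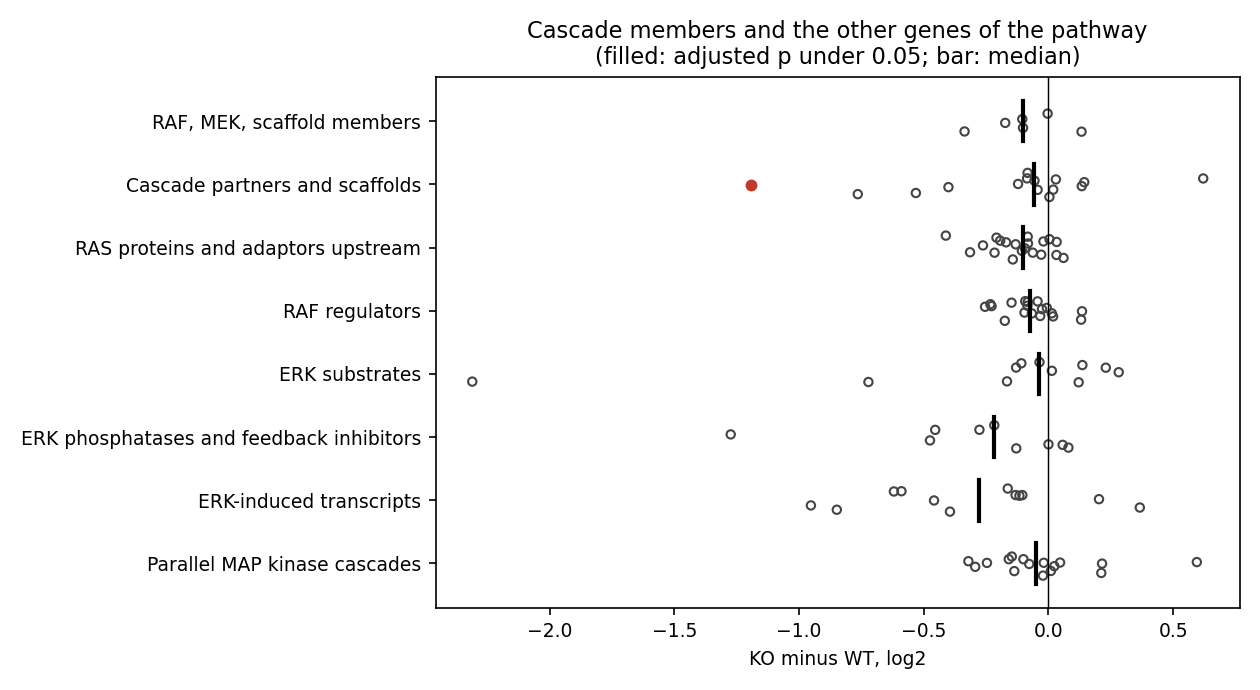
KO minus WT difference (log2, x axis) of the 6 cascade members tested and of the genes in 7 pathway lists; each circle is a gene, the filled one (Lamtor2) has an adjusted p under 0.05, and the bar is the median of the row. Medians lie between -0.28 and -0.04, and the leftmost open circle is Stmn1 at -2.31.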

How the data were processed

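The authors deposited 1 log2 value per probe set and array, made with GCRMA 2.16.0 in R 2.9.1 per the submitters' processing notes; the log2 scale was inferred from the range. The table's lowest value accounted for 28.9% of entries. Each gene was represented by the probe set of a single symbol with the highest mean over all 6 arrays, and all other probe sets of the members are reported. Genes at 4 or above on at least 3 arrays were tested two-sided and without covariates using lmFit and eBayes (limma 3.58.1, R 4.3.3), with Benjamini-Hochberg adjustment over all 10009 genes, and checked on simulated data. The members, lists and alternatives were chosen with earlier results of these data known. The genes named were all members, Lamtor2, and in each pathway list the called genes filled up to 3 with the smallest p; for the member with the smallest p, the 3 genes of highest Pearson r over the arrays were named too. Lamtor3, Iqgap2 and the cell type markers named were picked outside that rule. Detection calls and scan dates were not used here, and the number of arrays limits the precision. Promoters came from RefSeq (GRCm38.p6); figures used matplotlib 3.10.9. Alternatives covered the filter, the scaling, a floor at 4, the choice of probe set, array weights, the variance model, each array left out and a replicate block; leaving out both KO 3 and WT 2 was added after seeing the data.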

Additional observations from a re-analysis of the deposited data

How the results depend on the processing

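No cascade gene was called under any of the 18 alternatives, and Araf, Braf, Iqgap1 and Pebp1 kept their direction in all of them, with limma or ordinary-test adjusted p of 0.175 to 0.663 for Iqgap1 and 0.298 to 0.643 for Pebp1. With 1 array left out the difference ranged from -0.42 to -0.25 for Iqgap1, -0.22 to -0.12 for Pebp1, 0.043 to 0.23 for Araf and -0.14 to -0.041 for Braf. Without both KO 3 and WT 2, chosen after seeing the data, these were -0.39, -0.24, 0.14 and -0.15. Averaging all probe sets, those below the filter included, gave Iqgap1 and Braf differences of -0.16 and -0.026. Map2k1 turned sign to 0.0034 with quantile normalization, 0.063 with median centring and 0.030 without both KO 3 and WT 2, and ranged from -0.049 to 0.076 with 1 array left out; Map2k2 ranged from -0.19 to 0.0017. The 17 genes called over the table became 3 with no filter, 3 with the ordinary test, 3 without both KO 3 and WT 2, and 1 to 140 with 1 array left out. The replicate numbers did not pair the arrays (same-number r from -0.141 to -0.0789, 0 of 6 arrays most like their own number), and with the replicate block limma called 0 genes, 0 of them in the pathway lists, with 1235 at an unadjusted p under 0.05. The pathway lists held 2 called genes, Lamtor2 and Stmn1, under the stricter filter, both rescalings, the floor, averaged probe sets, the trended robust variance and array weights, 0 without both KO 3 and WT 2, and 0 to 2 with 1 array left out.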

Other observations

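For 3 of the kinase genes, the lowest or the highest value fell on the same array of each group. Araf was lowest on KO 3 in KO and on WT 2 in WT, at -0.19 and -0.18 relative to the group means. Map2k2 was lowest on the same arrays, at -0.20 and -0.17. Map2k1 was highest on both, at 0.091 and 0.16. Skeletal muscle markers averaged 11.11 on WT 2 and 2.55 on KO 3. Braf was also lowest on WT 2 in WT, at -0.035, but KO 1 was its lowest KO array, at -0.12. This order was picked after seeing the data, and its share over all genes was not counted. The part of muscle RNA in these values was not tested.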
